A study of Mus musculus with 12 samples.

Results

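Genes whose counts distinguish germ cell libraries of the newborn mouse testis from those of the fetal testis are described here. The libraries also held transcripts known from other testis cell types, whose part in these genes was not tested. A gene was included when each of the 6 postnatal libraries exceeded each of the 6 fetal libraries at least 2-fold, or the reverse, and its highest stage mean reached 100 normalized counts. Normalized counts are reads of a gene after division by the size factor of their library. Of 55487 genes in the table, 15037 reached that level and 341 met the rule, which is 2.27% of the 15037. Of these, 179 genes (1.19%) were higher postnatally and 162 (1.08%) were higher fetally. The values that chose these genes are the 12 library values themselves, so differences between the sets are given for them as a description and with no test.

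The libraries came from male germ cells, called gonocytes in the labels, of mice carrying the Mvh-Venus transgene, in which a fluorescent protein is driven in the germ line. The tissue tag is testis. The fetal set holds 3 libraries from each of 2 embryonic days, E13.5 and E16.5, and the postnatal set holds 3 of the day of birth (P0) and 3 of postnatal day 3 (P3). Every title and source name says wild type, whereas the genotype tag reads Morc1 (+/-) for E13.5 and P0 and Morc1 (-/-) for E16.5 and P3. Each set therefore holds both tags in equal number, and P0 against E13.5 and P3 against E16.5 each compare stages within 1 tag. Nothing in the labels says that the replicates of a stage came from separate animals or litters, so p-values measure only the spread between these samples. Libraries held 40946616 to 51533747 reads assigned to genes, and intervals from such counts would cover counting error only.

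Morc1, the gene of the genotype tag, acts in transposon silencing in male germ cells. The fetal libraries gave normalized counts of 1621, 1830 and 1640.5 (E13.5) and of 32917, 32890 and 28328 (E16.5). The postnatal libraries gave 7708, 7501 and 7279.9 (P0) and 10929, 10584 and 11129 (P3). The stages tagged Morc1 (-/-) did not have lower counts than those tagged Morc1 (+/-). A gene-level count can include exons outside a mutated part, so the counts do not settle which label holds. Postnatal and fetal libraries overlapped, and Morc1 was not among the separated genes. Within the tags its change ran in opposite directions, with a log2 change of 2.14 from E13.5 to P0 and -1.52 from E16.5 to P3. The difference of these changes, -3.67, was past the threshold of limma, as it was for 84.2% of all genes tested. The change from E13.5 to P0 alone was called for 86.1% of genes and that from E16.5 to P3 for 69.5%.

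Fetal male germ cells descend from primordial germ cells, which share a pluripotency-associated gene programme with early embryonic cells. In the fetal testis they leave the cell cycle, acquire new DNA methylation and arrest until after birth. They then resume division and form the spermatogonial population from which sperm production is maintained.

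Beside the separated genes, tests with limma on log2(normalized count + 1) compared the mean of P0 and P3 with the mean of E13.5 and E16.5. Differences called by limma have a Benjamini-Hochberg adjusted p under 0.05. Of 22384 genes tested, 74.9% were called, 39.4% higher and 35.5% lower postnatally, so a call alone says little about a single gene. The calls counted for each gene or marker list below stand beside these shares. The median log2 change over all genes tested was 0.08, with 0.20 from E13.5 to P0 and -0.05 from E16.5 to P3. Of the 13135 genes with a mean of at least 100, 4291 were called higher and 6715 lower. Their medians were -0.21 between the sets, -0.71 from E13.5 to P0 and 0.19 from E16.5 to P3. A stricter fit that treats the libraries as 2 sets of 6, and so counts the difference between stages of a set as spread, called 18.4% of genes, 9.73% higher and 8.69% lower. The 2 sets did not overlap, whatever the size of the gap, in 2464 of the 15037 genes (16.4%). The gap below is the lowest library of the higher set divided by the highest library of the lower set.

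**Figure D1:**
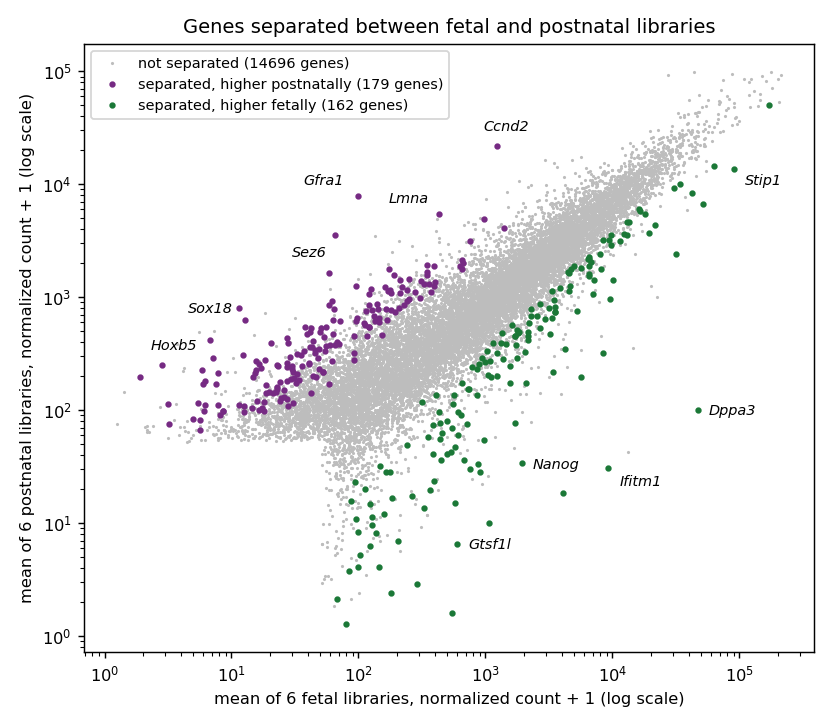
Mean normalized count + 1 of the 6 fetal libraries (horizontal, log scale) against that of the 6 postnatal libraries (vertical, log scale) for the 15037 genes with a highest stage mean of at least 100. Purple points are the 179 genes higher in every postnatal library, green points the 162 higher in every fetal library, and grey points the rest. Dppa3 lies farthest to the lower right and Gfra1 and Hoxb5 are at the upper left.

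Genes of the pluripotency and germ cell identity programme were among the fetal-higher genes with the highest levels and widest gaps. Dppa3 (chr6:122626410-122630272, + strand, GRCm38), which protects the maternal genome from demethylation in the zygote and marks primordial germ cells, counted 14062 to 82674 in fetal libraries, with a median of 46756. In postnatal libraries Dppa3 counted 11.8 to 199.8, with a median of 86.1. Its lowest fetal library exceeded its highest postnatal library 70.4-fold, the widest gap of the 341 genes. The decline was in steps, with stage means of 79747 ± 2546, 14676 ± 719, 182 ± 26.9 and 17.8 ± 5.22 (SD, n = 3) from E13.5 to P3. Per kilobase of exon, Dppa3 also had the highest fetal mean of the fetal-higher genes, at 52928, followed by the chaperone gene Stip1 at 43108 and by Utf1 at 25640.

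Nanog, a core transcription factor of pluripotent cells, lies within 100 kb of Dppa3 and of Gdf3, a TGF-beta family ligand of pluripotent cells, and all 3 were separated. They span chr6:122605403-122714633. Nanog counted 182 to 4006 in fetal libraries (median 1753) and 1.94 to 64.1 in postnatal libraries (median 31.9). Gdf3 counted 311 to 3224 (median 1647) against 7.75 to 142 (median 79.7). For both genes E16.5 lay closer to P0 than to E13.5. The stage means of Nanog were 3615, 238, 62.9 and 2.64 from E13.5 to P3, and those of Gdf3 were 3094, 329, 131 and 20.5.

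Pou5f1, which encodes the pluripotency factor OCT4 (chr17:35506018-35510772, + strand), was lower postnatally with a different course. It counted 6790.4 to 13346 in fetal libraries (median 10199) and 1026 to 1853 in postnatal libraries (median 1430). No library of a set reached the other set, as the rule requires, and the gap was 3.66. Its stage mean was higher at P3 (1787 ± 56.7) than at P0 (1053 ± 45.7). Utf1, a chromatin-associated factor of pluripotent and germ cells, counted 18925 to 46302 (median 30371) in fetal and 1206 to 3654 (median 2424) in postnatal libraries, with a gap of 5.18.

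Further fetal-higher genes of this programme had narrower gaps. Dppa4, a chromatin factor of pluripotent cells, counted 24782 to 60479 against 6272 to 10737, a gap of 2.31, and was highest at E16.5. Zfp42, which encodes the pluripotency marker REX1, counted 1948 to 4404 against 579 to 966, a gap of 2.02. Tfcp2l1, a transcription factor of naive pluripotency, counted 1051 to 2224 against 143 to 332. Fbxo15, a target of OCT4 in embryonic stem cells, counted 5771 to 7080.5 against 888 to 2344.

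Of the 20 listed pluripotency and primordial germ cell genes tested, 17 were called lower and 3 higher by limma, and 6 were separated, all of them higher fetally. The list's median log2 change was -2.07 against 0.08 over all genes tested. It was -3.45 from E13.5 to P0 and -0.61 from E16.5 to P3. In the fit of 2 sets of 6, 10 of the 20 were called, all lower. Prdm14, a specifier of primordial germ cells, fell by 3.89 on the log2 scale (SE 0.172, limma adjusted p 5.36e-12) without being separated, with stage means of 255 at E16.5 and 164 at P0. Sox2, a partner of OCT4, fell by 2.32 (SE 0.108, limma adjusted p 9.24e-12), but its fall lay between E13.5 and E16.5. The stage means of Sox2 were 4204, 324, 198 and 276 from E13.5 to P3, and P3 against E16.5 was not called (log2 change -0.22, limma adjusted p 0.22). The members called higher were Klf4 (log2 change 0.75), Nr5a2 (0.66) and Trim71 (0.26).

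Nodal signalling, which is active in male germ cells around sex determination, had no separated gene although several members had wide differences. Of 14 listed genes tested, 8 were called lower, 3 higher and 3 not called, with a median log2 change of -1.59. Lefty1, a Nodal inhibitor and target, had stage means of 26419, 185, 72.4 and 11.2 and a log2 change of -6.26 (SE 0.192, limma adjusted p 1.02e-13). The ligand gene Nodal fell by 3.77 (SE 0.18, limma adjusted p 1.34e-11), with stage means of 4282, 251, 90.5 and 64.8. For these genes most of the distance lay between E13.5 and E16.5, and the sets did not meet the 2-fold rule.

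Genes that act in the germ line itself formed a further group. Gtsf1l (chr2:163087034-163087855, - strand), a paralog of the piRNA pathway gene Gtsf1, counted 473 to 697 in fetal libraries (median 614) and 0.522 to 7.75 in postnatal libraries (median 6.09). Its gap of 61.1 was the next after Dppa3, and the fetal stages were close to each other, with means of 685 ± 11.8 at E13.5 and 513 ± 40.8 at E16.5. Nanos2, a translational regulator needed for male germ cell fate and spermatogonial stem cells, counted 428 to 681 (median 633) against 6.79 to 123 (median 50.8). Within the postnatal set Nanos2 was lowest at P0 (10.2 ± 3.36) and higher at P3 (108 ± 17.9). Its relative Nanos3 had stage means of 2079, 1368, 34.0 and 1045 and was not separated, because P3 was close to E16.5.

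Dnd1, an RNA-binding protein that NANOS2 works with, counted 31864 to 74414 (median 50193) in fetal and 3545 to 9874 (median 6676) in postnatal libraries. Its highest stage mean was at E16.5 (69582 ± 5403) and its lowest at P0 (3892 ± 389). Tdrd5, a tudor-domain gene of germ granules and piRNA production, counted 14170.0 to 23339 against 4218 to 7068, a gap of 2.00. It was the only separated gene of the 22 listed transposon silencing genes. Of these, 10 were called higher and 9 lower, beside 39.4% and 35.5% of all genes tested. Their median log2 change was 0.06 (1.62 from E13.5 to P0 and -0.86 from E16.5 to P3). Tex14, which stabilises the intercellular bridges between germ cells, counted 10548 to 17981 against 2168 to 5271 and also lay at the 2-fold border.

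Of the interferon-stimulated genes, 6 were separated, all of them higher fetally. Ifitm1, Ifitm2 and Ifitm3 encode interferon-induced membrane proteins that restrict virus entry, and Ifitm1 and Ifitm3 are also known as Fragilis genes that mark primordial germ cells. They lie together at chr7:140954837-141010770 in GRCm38. Isg15, a ubiquitin-like modifier, Bst2, which tethers virus particles to the cell surface, and Zbp1, a nucleic acid sensor, lie elsewhere. The first 5 of these and the chaperone gene Hsph1, described below, are shown as sequences because they can be set beside the response element of their class. Each sequence runs from 250 bases before the start site to 29 bases after it, from RefSeq on GRCm38.p6, 5′ to 3′ on the gene's strand. Capitals mark matches to the interferon-stimulated response element, searched on both strands as GAAA, any 2 bases and GAAA. In Hsph1 they mark the heat shock element, searched on both strands as GAA, any 2 bases, TTC, any 2 bases and GAA. The windows are chr7:140967826-140968105 (+) for Ifitm1, chr7:140955932-140956211 (-) for Ifitm2, chr7:141010715-141010994 (-) for Ifitm3, chr4:156200789-156201068 (-) for Isg15, chr8:71537443-71537722 (-) for Bst2 and chr5:149636286-149636565 (-) for Hsph1.
Ifitm1: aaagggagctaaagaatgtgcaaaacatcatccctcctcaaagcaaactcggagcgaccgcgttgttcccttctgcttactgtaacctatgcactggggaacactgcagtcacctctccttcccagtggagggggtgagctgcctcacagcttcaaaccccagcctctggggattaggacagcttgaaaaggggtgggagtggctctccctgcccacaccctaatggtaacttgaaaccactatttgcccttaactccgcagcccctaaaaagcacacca
Ifitm2: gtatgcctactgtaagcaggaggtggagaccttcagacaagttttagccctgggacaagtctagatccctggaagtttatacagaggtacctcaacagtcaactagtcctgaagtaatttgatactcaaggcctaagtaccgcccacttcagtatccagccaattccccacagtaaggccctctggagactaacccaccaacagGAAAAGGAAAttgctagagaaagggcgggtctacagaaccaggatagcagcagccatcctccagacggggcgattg
Ifitm3: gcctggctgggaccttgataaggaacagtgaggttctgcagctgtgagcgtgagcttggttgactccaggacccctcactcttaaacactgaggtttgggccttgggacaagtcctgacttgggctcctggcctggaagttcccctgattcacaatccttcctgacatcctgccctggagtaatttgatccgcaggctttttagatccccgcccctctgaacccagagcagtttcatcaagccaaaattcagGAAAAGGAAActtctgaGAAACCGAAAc
Isg15: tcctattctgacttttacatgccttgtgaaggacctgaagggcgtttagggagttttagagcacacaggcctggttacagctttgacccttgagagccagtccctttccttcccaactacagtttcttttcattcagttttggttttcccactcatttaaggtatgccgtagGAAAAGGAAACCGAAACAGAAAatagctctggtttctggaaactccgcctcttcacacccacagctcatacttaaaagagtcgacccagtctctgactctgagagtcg
Bst2: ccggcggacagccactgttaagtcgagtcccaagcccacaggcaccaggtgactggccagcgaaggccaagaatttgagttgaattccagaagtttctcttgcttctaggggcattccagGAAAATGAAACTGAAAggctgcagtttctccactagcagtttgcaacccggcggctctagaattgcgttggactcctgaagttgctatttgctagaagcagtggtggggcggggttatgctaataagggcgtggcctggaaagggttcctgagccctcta
Hsph1: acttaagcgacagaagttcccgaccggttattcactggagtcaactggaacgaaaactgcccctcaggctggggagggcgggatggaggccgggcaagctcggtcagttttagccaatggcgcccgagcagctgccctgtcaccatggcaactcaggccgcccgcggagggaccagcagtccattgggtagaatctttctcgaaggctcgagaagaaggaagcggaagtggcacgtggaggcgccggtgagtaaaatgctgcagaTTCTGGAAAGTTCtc

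Counting the start-site base as 0, the Ifitm2 match began at -46 and the Ifitm3 matches at 2 and 19. Isg15 held 3 overlapping matches, from -78, -72 and -66, and Bst2 held 2 overlapping matches, from -130 and -124. Ifitm1 held no match in this window. The element was found in 7 of the 125 fetal-higher genes with a promoter in the table (5.6%), in 7 of the 124 postnatal-higher genes (5.65%) and in 3.99% of 27025 promoters, in windows of 250 bases before to 50 after the start. The share was thus alike in both directions, and a match is a description of letters only.

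Ifitm1 counted 1450.5 to 18169 in fetal libraries (median 8836) and 21.3 to 43.2 in postnatal libraries (median 27.9). Ifitm3 counted 615 to 7934 (median 3866) against 2.02 to 30.8 (median 18.9). Ifitm2 counted 2785 to 8437 (median 5731) against 163 to 232 (median 196). All 3 were highest at E13.5, lower at E16.5 and lower again after birth, and the gaps of Ifitm1, Ifitm3 and Ifitm2 were 33.6, 19.9 and 12.01. Of the 50-base words in Ifitm2 exons, 48.5% occur in other genes, so its counts are uncertain where reads could be shared.

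Isg15 counted 87.4 to 163 in fetal libraries (median 139.9) and 0 to 14.1 in postnatal libraries (median 7.26), with similar means at E13.5 (145 ± 21.1) and E16.5 (126 ± 37.5). Bst2 counted 1683 to 3677 (median 2746) against 420.1 to 648 (median 537). Zbp1 was at a low level, 13.4 to 206 against 0 to 5.98. The sets did not overlap in these 3 genes, as the rule requires. Of 23 interferon-stimulated genes tested, in a list written after values were seen, 11 were called lower and 9 higher. Over all genes tested, 35.5% were called lower and 39.4% higher. The list's median log2 change was -0.22 with the deposited scaling and 0.26 with equal library totals, beside 0.08 and 0.56 over all genes tested. The sign of the list's median thus changed with the scaling, while the list lay below all genes under each. Among its members called higher, the antiviral enzyme gene Rsad2 had a log2 change of 3.17 (SE 0.148, limma adjusted p 1.03e-11), and among those lower the RNA sensor gene Ddx58 had -3.38 (SE 0.0842, limma adjusted p 1.20e-14).

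Cytosolic and mitochondrial chaperones were lower postnatally almost throughout their list. Stip1, which couples HSP70 and HSP90 (chr19:7020702-7039967, - strand), counted 70091 to 107437 in fetal libraries (median 91209) and 10026 to 16948 in postnatal libraries (median 13878). Its gap was 4.14, both with the deposited scaling and with equal library totals. Cct7, a subunit of the TRiC chaperonin that folds actin and tubulin, counted 152432 to 210507 (median 168936) against 34046 to 67364 (median 51240.0), the highest counts of any fetal-higher gene. Both had lower stage means at P0 than at P3.

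Hsph1, an HSP110 exchange factor for HSP70, counted 15512 to 28054 (median 21596) against 3784 to 4975 (median 4434), with a gap of 3.12. Its heat shock element, on the minus strand of the window shown, begins 15 bases after the start site. Such a match was found in 3 of 125 fetal-higher genes (2.40%), 1 of 124 postnatal-higher genes (0.806%) and 0.662% of all promoters. The fetal-higher genes with a match were Hsph1, Bst2 and 2700049A03Rik. No other separated chaperone gene with a promoter in the table had a match. Ahsa1, an HSP90 activator, Trap1, the mitochondrial HSP90, and Hspbp1, an HSP70 exchange factor, had gaps of 2.09, 2.45 and 2.18. These 3 and Hsph1 and Cct7 lost the 2-fold gap under at least 1 other scaling of the libraries.

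Heat shock chaperone and co-chaperone genes formed a list also written after values were seen. Of 34 tested, 33 were called lower and 1 higher, with a median log2 change of -1.30. Over all genes tested, 35.5% were called lower. All 34 reached a stage mean of 100, and of 13135 genes with a mean of at least 100, 6715 were called lower. The list's median was -2.10 from E13.5 to P0 and -0.40 from E16.5 to P3, so most of the fall lay in the former. The medians of those 13135 genes were -0.71 and 0.19. The fit of 2 sets of 6 called 22 of the 34 listed genes, all lower, beside 8.69% of all genes. With equal library totals, 31 of the 34 were called lower and their median was -0.80, beside 0.56 over all genes tested. Hspa8, the constitutive HSP70, had stage means of 253050, 161154, 25048 and 82967 and a log2 change of -2.15 (SE 0.0562, limma adjusted p 2.09e-14). The inducible HSP70 gene Hspa1a was the exception, with a log2 change of 1.20 (SE 0.295, limma adjusted p 0.00156). Of the 50-base words in Hspa1a exons, 60.3% occur in other genes, and of those in Hspa8 exons, 38.6%. The counts of Hspa1a and Hspa8 are therefore uncertain where reads could be shared.

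Other fetal-higher genes with wide gaps have varied functions. Liph, a phospholipase that releases lysophosphatidic acid, counted 4541 to 12557 (median 8441) in fetal and 127 to 499 (median 321) in postnatal libraries, a gap of 9.10. Khdc1a, of a KH-domain family of oocytes and embryos, counted 111 to 295 against 2.02 to 13.6, and 43.5% of its 50-base words occur in other genes. Slc16a4, a monocarboxylate transporter family member, counted 397 to 1322 against 24.5 to 53.0. The orphan receptor gene Gpr20 counted 127 to 202 against 5.81 to 17.2, and Tmem40, a membrane protein gene, 459 to 675 against 24.3 to 64.7. Ctsw, a cathepsin known from lymphocytes, counted 302 to 1540 against 6.52 to 50.6 and was highest at E13.5.

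Rhox5, a homeobox gene of the X-linked Rhox cluster, was the cluster's only fetal-higher gene, with 3754 to 15408 (median 9509) against 662 to 1276 (median 941). G3bp1, a stress granule nucleator, counted 42016 to 84040 against 11491 to 16901, with a gap of 2.49. Rps4x, an X-linked ribosomal protein gene, counted 12146 to 25764 against 3311 to 4092, and 41.2% of its 50-base words occur in other genes. These 3 genes were each highest at E13.5.

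**Figure D2:**
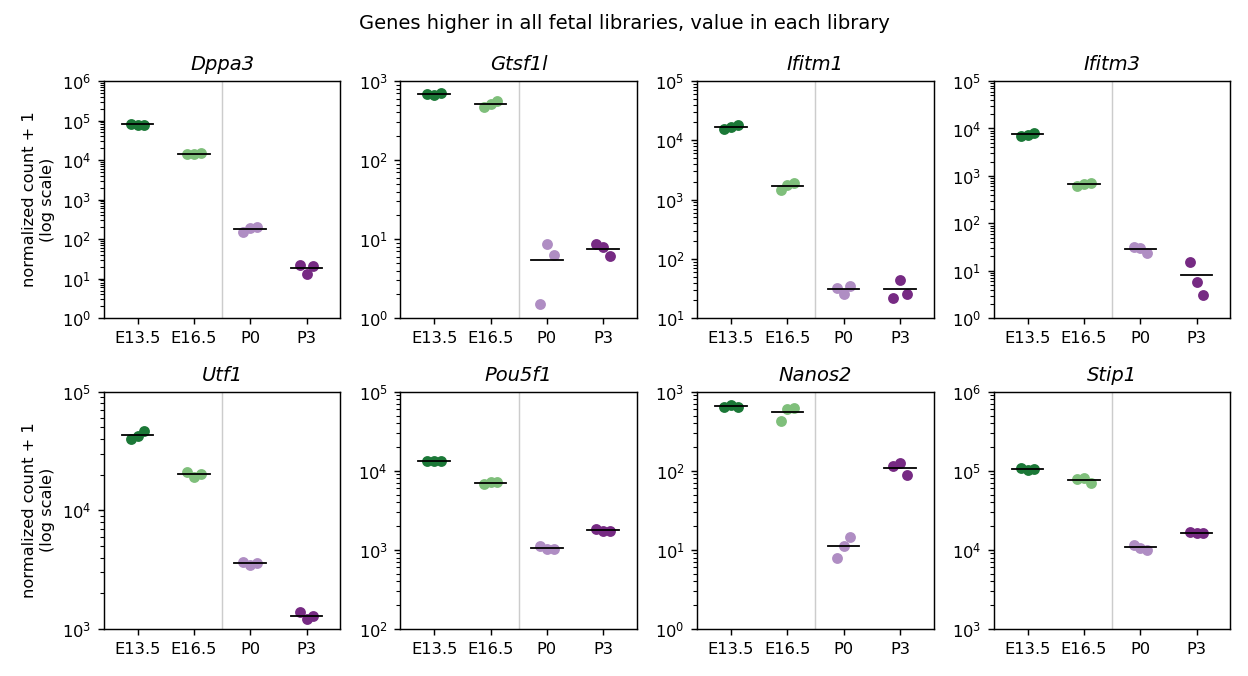
Normalized count + 1 (log scale) of 8 fetal-higher genes in the 3 libraries of each stage, fetal stages on the left. Points are libraries, black lines are stage means, and the grey line divides fetal from postnatal stages. In all 8 panels every fetal library lies above every postnatal one, and Nanos2 has its lowest values at P0.

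Before the postnatal-higher genes, the levels of other testis cell types are needed, because in bulk RNA fewer cells of a type and less RNA per cell cannot be told apart. All 11 peritubular and stromal markers tested were called higher postnatally, with a median log2 change of 2.15. Their summed normalized counts were 374 to 456 (E13.5), 2963 to 3851 (E16.5), 7378 to 7951 (P0) and 2801 to 3208 (P3). Their sum in fetal libraries thus overlapped the sum at P3. Of Sertoli markers, 7 of 9 were called higher and 2 were not called, with sums of 3342 to 8409 in fetal and 6230 to 25380 in postnatal libraries, highest at P0. All 8 mast cell markers tested were called higher, with sums of 81.3 to 322 in fetal and 549 to 3749 in postnatal libraries, again highest at P0, and their median change from E16.5 to P3 was 0.01.

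Macrophage marker sums were 38.1 to 1275 in fetal and 316 to 690 in postnatal libraries, with 2 of 8 markers called higher and 1 lower, and Fcgr1 at or under 3 reads in all libraries. Leydig marker sums were 774 to 8424 and 610.5 to 7796, with 2 of 7 markers called higher and 1 lower. Endothelial sums were 4414 to 5319 and 2086 to 3369, with 4 of 8 called higher and 2 lower, and a median log2 change of 0.59. Erythroid sums were 74.7 to 2564 and 299.5 to 2648, with 2 of 7 called higher and none lower. The 7 germ cell markers in the table summed to 277184 to 314906 in fetal and 149467 to 285026 in postnatal libraries, with 4 called higher and 3 lower. Their sums were lowest at P0 (149467 to 159285), while those at P3 (263927 to 285026) overlapped the fetal range. The part of other cells in the postnatal-higher genes was not tested.

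Some postnatal-higher genes are themselves known from such cells. Dcn, a proteoglycan of connective tissue and the only separated stromal marker, counted 333 to 509.7 in postnatal libraries (median 375) and 10.9 to 138 in fetal libraries (median 58.6). Mrc1, the macrophage mannose receptor, counted 178 to 336 (median 272) against 0 to 82.3 (median 36.6), and was the only separated macrophage marker. Spi1, the myeloid transcription factor PU.1, counted 164 to 318 (median 228) against a fetal median of 9.68 and maximum of 48.7, and Lcp1, an actin bundler of blood cells, 709 to 844 against 119.9 to 252. For Spi1 and Mrc1 the highest stage was P3. The macrophage sum was highest at E16.5, and only 2 of the 10 listed macrophage markers reached a stage mean of 100. The relation of Spi1 and Mrc1 to macrophage content was not tested.

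Of the spermatogonial genes, Gfra1 and Dmrtb1 were higher in every postnatal library. Gfra1, which encodes the co-receptor for GDNF, the Sertoli-derived factor that maintains spermatogonial stem cells (chr19:58235604-58455909, - strand), counted 516 to 16872 in postnatal libraries (median 7357) and 17.9 to 183 in fetal libraries (median 92.4). It was higher at each later stage, with means of 23.2 ± 6.54, 173 ± 15.9, 575 ± 51.4 and 15269 ± 1436. The lowest postnatal library exceeded the highest fetal one 2.82-fold, while the set means differed 80.9-fold, because most of the distance lay between P0 and P3. Dmrtb1, a factor of the spermatogonial transition to meiosis, counted 109 to 191 (median 158) against 6.31 to 46.5 (median 24.0).

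Of 26 listed spermatogonial genes tested, 15 were called higher and 6 lower, beside 39.4% and 35.5% of all genes tested. The other 5 were not called, and the list's median log2 change was 0.52. The fit of 2 sets of 6 called 5 higher and 2 lower. The list's median was -0.36 from E13.5 to P0 and 2.03 from E16.5 to P3, so it had no common direction within the tags. Gfra1 and Dmrtb1 were separated upward and Nanos2 downward. Zbtb16, the stem cell factor PLZF, had stage means of 26.6, 91.4, 178 and 2160 and a log2 change of 3.67 (SE 0.194, limma adjusted p 4.29e-11). Ret, the signalling partner of GFRA1, had a log2 change of 2.06 (SE 0.075, limma adjusted p 6.58e-13), made of -0.36 from E13.5 to P0 and 4.49 from E16.5 to P3. Etv5 and Lhx1, which GDNF regulates in these cells, were not called (log2 changes 0.06 and 0.12, limma adjusted p 0.568 and 0.436). Both had high means at E13.5 and P3 and low means between, which for Etv5 were 20956, 1049, 1257 and 18691. In a list of 13 GDNF signalling genes, written after values were seen, 8 were called higher and 2 lower, beside 39.4% and 35.5%. The medians of that list were -0.36 from E13.5 to P0 and 1.09 from E16.5 to P3.

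Ccnd2, a D-type cyclin of the G1 phase (chr6:127125162-127152193, - strand), had the highest postnatal mean per kilobase of exon of the postnatal-higher genes, at 2340. It counted 5396 to 39378 in postnatal libraries (median 21564) and 571 to 2388 in fetal libraries (median 1105). The stage means were 612 ± 37.2, 1872 ± 449, 6401 ± 1118 and 37630 ± 1952, higher at each stage. The related Ccnd1 was not separated, with stage means of 741, 76.7, 313 and 7383. Of 19 general cell cycle genes tested, 17 were called lower and 1 higher, with a median log2 change of -0.64, but the fit of 2 sets of 6 called only 2, both lower. Their median was -3.58 from E13.5 to P0 and 1.78 from E16.5 to P3, opposite within the tags. With equal library totals 11 were called lower and 4 higher, and the median was -0.15, beside 0.56 over all genes tested. Cdc20, an activator of the anaphase-promoting complex, had stage means of 41654, 19978, 4426 and 20823.

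Lmna, which encodes the nuclear lamins A and C, counted 2801 to 8044 (median 5454) in postnatal and 125 to 888 (median 369) in fetal libraries, with a gap of 3.15. Its stage means were 126, 730.1, 3088 and 7872. It was the only separated gene of 11 nuclear lamina genes tested, a list written after values were seen, of which 2 were called higher and 8 lower, with medians of -1.55 from E13.5 to P0 and 1.17 from E16.5 to P3. Lmnb2, a B-type lamin, fell by 1.64 on the log2 scale (SE 0.105, limma adjusted p 4.94e-10). The median of that list was -0.32, and 0.18 with equal library totals, beside 0.08 and 0.56 over all genes tested.

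Hoxb5 and Hoxb6, homeobox genes of axial patterning, lie side by side at chr11:96292476-96306121, and both were close to 0 in fetal libraries. Hoxb5 counted 59.2 to 479 in postnatal libraries (median 228) and 0 to 3.82 in fetal libraries (median 1.98), and its gap of 15.5 was the widest of the postnatal-higher genes. Hoxb6 counted 12.5 to 399.8 (median 184) and was at or under 3 reads in all 6 fetal libraries, so no fold is given. All 9 Hoxb genes tested were called higher, with a median log2 change of 2.98, in a list written after values were seen. Hoxb7 did not separate because E16.5 lay above P0, with stage means of 4.99, 396, 261 and 803.

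Genes of retinoic acid metabolism, the vitamin A pathway that regulates axial Hox genes and germ cell differentiation, held 4 separated genes, all higher postnatally. Cyp26a1, which degrades retinoic acid, counted 32.8 to 310.3 (median 168) against 0 to 15.8 (median 3.17). Dhrs3, which reduces retinal to retinol, counted 167 to 975 (median 493) against 30.6 to 66.4 (median 48.5). Aldh1a3, which makes retinoic acid, counted 116 to 250.4 (median 176) against 10.5 to 44.3 (median 29.2). Rbp7, a retinol-binding protein, counted 99.4 to 132 against 0 to 26.7 and was level between P0 (113 ± 16.9) and P3 (106 ± 1.32), whereas the other 3 were higher at P3 than at P0. These 4 genes, chosen by the rule, thus include an enzyme of synthesis and an enzyme of degradation.

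Of 21 retinoid receptor and metabolism genes tested, again a list written after values were seen, 13 were called higher and 6 lower. These counts stand beside 39.4% and 35.5% of all genes tested, and the list's median log2 change was 0.92. The fit of 2 sets of 6 called 10 higher and 3 lower. Cyp26c1, another retinoic acid hydroxylase, had a log2 change of 4.99 (SE 0.324, limma adjusted p 5.58e-10) at low counts, with stage means of 0, 0.528, 23.5 and 56.9. The receptor gene Rarb had 3.52 (SE 0.323, limma adjusted p 4.31e-08), which lay between E13.5 and P0 (6.76) and not between E16.5 and P3 (0.29, limma adjusted p 0.59). Rxrb, a partner receptor, was lower, by -1.62 (SE 0.0606, limma adjusted p 8.79e-13).

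On the X chromosome, 4 Magea genes and 2 Rhox genes were higher in every postnatal library. Magea6, Magea3, Magea2 and Magea5, of a MAGE family expressed in germ cells and tumours, lie at chrX:154924012-155093666 and were all separated. Magea6 counted 266 to 511 (median 397) against 3.17 to 51.5 (median 24.8), and Magea5 665 to 1478 (median 1066) against 21.0 to 217 (median 117). The gaps of the 4 genes, in the order named, were 5.16, 4.01, 2.75 and 3.07, and all 4 stayed separated under every scaling tried. Because 39.0% to 58.3% of their 50-base words occur in other genes, the counts of single copies are uncertain. All 8 Magea genes tested were called higher, with a median log2 change of 3.32, in a list written after values were seen.

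In the Rhox cluster, Rhox8 counted 313 to 647 (median 393) against 34.4 to 68.1 (median 54.4), and Rhox13 counted 1378 to 1860 (median 1680) against 134 to 610 (median 331). With Rhox5 in the other direction, 3 of 19 tested cluster genes were separated. Of the 19, 11 were called higher, 6 lower and 2 not called, beside 39.4% higher and 35.5% lower over all genes tested. The cluster's median log2 change was 0.51. Rhox13 is known from male germ cells and Rhox8 mainly from Sertoli cells, whose markers were also highest at P0, where Rhox8 was highest (514 ± 177). That coincidence was not tested. The X chromosome held 17 of the 179 postnatal-higher genes (9.50%) and 7 of the 162 fetal-higher genes (4.32%), beside 4.10% of the 15037 genes.

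The clock genes Nr1d1 and Bhlhe40 and the glucocorticoid-induced gene Klf9 were separated in the same direction. Nr1d1, the circadian repressor REV-ERB alpha, counted 2729 to 3577 (median 3087) against 704 to 829 (median 768), and was near level within each set. Bhlhe40, another repressor of the clock, counted 379 to 1459 (median 949) against 33.8 to 104 (median 53.6). Of 19 clock genes tested, a list written after values were seen, 10 were called higher, 3 lower and 6 not called. Over all genes tested, 39.4% were called higher and 35.5% lower. The list's median log2 change was 0.17, with 0.87 from E13.5 to P0 and -0.15 from E16.5 to P3. Nr1d2, the close relative of Nr1d1, was lower by -1.15 (SE 0.0685, limma adjusted p 1.98e-10).

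Klf9, a transcription factor induced by glucocorticoids, counted 245 to 1001 (median 586) against 25.3 to 114 (median 73.9). It was the only separated gene of the 12 glucocorticoid-responsive genes. Of these, 7 were called higher and 3 lower, beside 39.4% and 35.5% of all genes tested, with a median log2 change of 0.78. Tsc22d3, which encodes the glucocorticoid-induced leucine zipper, had stage means of 810, 5083, 7517 and 25476 and a log2 change of 2.77 (SE 0.0464, limma adjusted p 1.66e-16). The receptor gene Nr3c1 had a log2 change of 1.32 (SE 0.0697, limma adjusted p 4.22e-11).

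In WNT signalling, Frzb, a secreted WNT antagonist, counted 252 to 513 (median 387) against 4.35 to 36.4 (median 19.7) and was highest at P0. Tcf7l2, a transcription factor at the end of the pathway, counted 484 to 1140 (median 773) against 28.3 to 95.4 (median 64.0). Of 34 WNT genes tested, in a list written after values were seen, 13 were called higher, 12 lower and 9 not called. These counts were near the 39.4% higher and 35.5% lower over all genes tested, and the list's median log2 change was 0.01. Lef1, a relative of Tcf7l2, was lower by -1.11 (SE 0.0642, limma adjusted p 1.25e-10).

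Among the remaining postnatal-higher genes with wide gaps, Odf1, a sperm tail outer dense fibre gene, counted 84.0 to 141 (median 116) against 0 to 8.44 (median 4.74). Tcerg1l, a relative of a transcription elongation regulator, counted 1023 to 1294 (median 1227) against 71.6 to 144 (median 131). Sox18, a factor of endothelial development, counted 128 to 1158 (median 626) against 7.63 to 23.7 (median 9.10) and its relation to the endothelial markers was not tested. The ubiquitin ligase genes Trim9 and Mid2 had gaps of 5.50 and 5.45, the kinase gene Nim1k 5.08 and the intracellular FGF-family gene Fgf12 4.73. Fgf12 was high at P0 (496 ± 41.5) and lower at P3 (116 ± 15.3).

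At higher levels, Sez6, a membrane protein gene known from neurons, counted 327 to 7480 (median 3254) against 27.4 to 97.6 (median 64.6), with means of 386 at P0 and 6684 at P3. Rftn1, a lipid raft protein gene, counted 4223 to 5759 (median 4903) against 844 to 1134 (median 939), and was close to level within each set. Ppp3ca, a catalytic subunit of calcineurin, counted 3479 to 4708 against 1058 to 1653 and lost its 2-fold gap with equal library totals. Rftn1 and Sez6 thus had different courses, near level over P0 and P3 for the former and far higher at P3 than at P0 for the latter.

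**Figure D3:**
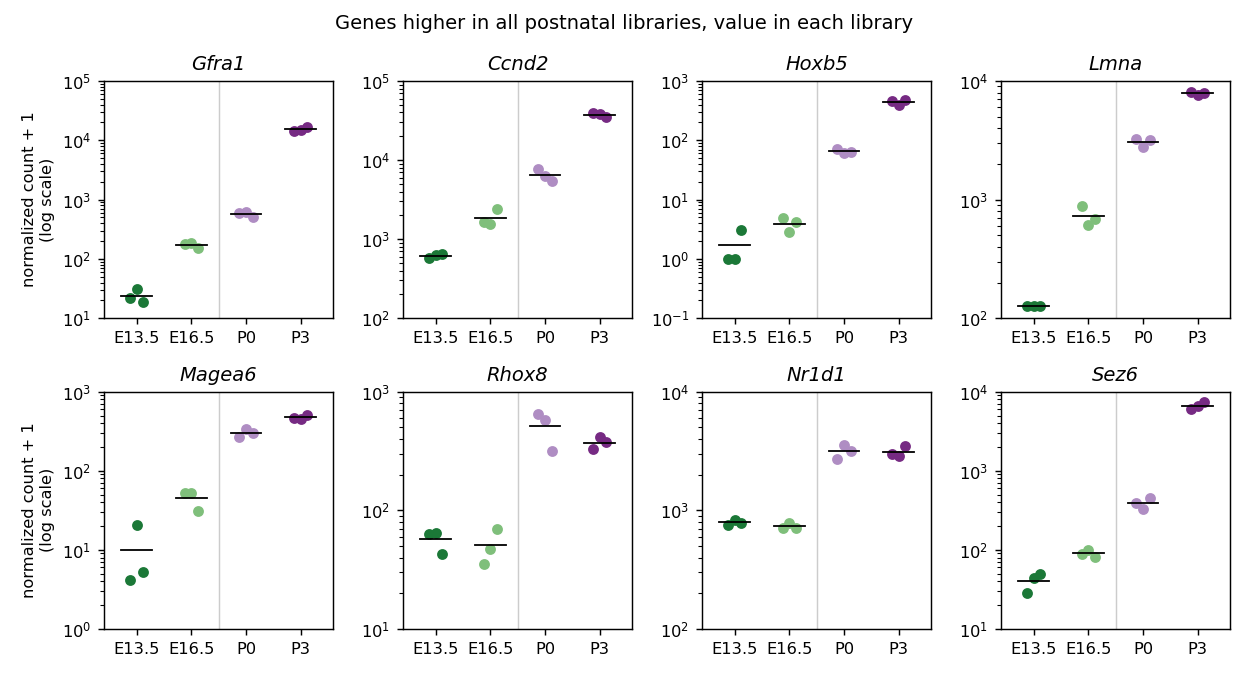
Normalized count + 1 (log scale) of 8 postnatal-higher genes in the 3 libraries of each stage, fetal stages on the left. Points are libraries, black lines are stage means, and the grey line divides fetal from postnatal stages. Gfra1, Ccnd2, Hoxb5, Lmna and Sez6 are higher at P3 than at P0, while Nr1d1 is near level within each set and Rhox8 is highest at P0.

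Some further lists had members with large differences but at most 1 separated gene. Their calls stand beside 39.4% higher and 35.5% lower over all genes tested. Of 16 imprinted growth genes tested, 12 were called higher and 3 lower, with a median log2 change of 1.47, and Dcn was the separated member. The median was 2.68 from E13.5 to P0 and -0.27 from E16.5 to P3, and the fit of 2 sets of 6 called 4 higher and 2 lower. Igf2, the fetal growth factor, had a log2 change of 3.20 (SE 0.479, limma adjusted p 1.40e-05) at low counts, and Peg3, a zinc finger gene of fetal growth, -2.47 (SE 0.0987, limma adjusted p 1.78e-12). Of 15 genes of MHC class I antigen presentation, 11 were called higher and 4 lower, with a median of 1.51. Its separated member, the immunoproteasome subunit gene Psmb8, counted 38.3 to 298 (median 168) against 0 to 16.6 (median 4.73) and was highest at P0. H2-D1, a class I heavy chain gene, had a log2 change of 2.92 (SE 0.0695, limma adjusted p 7.32e-15).

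Of 16 hypoxia-responsive genes, 9 were called higher and 7 lower, with a median of 0.36. Of 16 LIN28 and let-7 target genes, 9 were called lower, 4 higher and 3 not called. Their median was -0.21 with the deposited scaling and 0.29 with equal library totals, beside 0.08 and 0.56 over all genes tested. As deposited, the list's median was -1.17 from E13.5 to P0 and 0.88 from E16.5 to P3. In a list of 15 D-type cyclins and partners, written after values were seen, 8 were called higher and 5 lower. The calls of these lists also stand beside 39.4% higher and 35.5% lower over all genes tested.

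**Figure D4:**
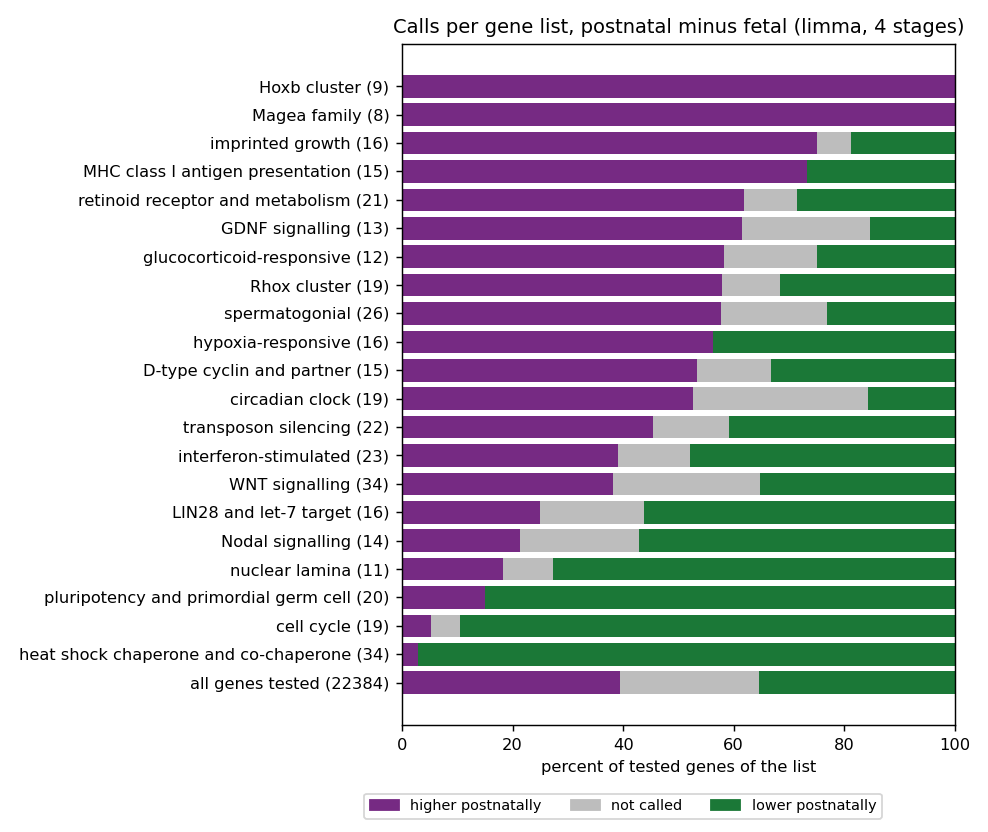
Percent of the tested genes of each list called higher postnatally (purple), not called (grey) or called lower (green) by limma over 4 stages, with the number of genes tested in brackets and all 22384 genes in the lowest bar. The Magea and Hoxb lists are called higher throughout, the chaperone list is lower in 33 of 34 genes and the pluripotency list in 17 of 20.

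The separated genes also changed within each set. Of the 179 postnatal-higher genes, 119 had their highest stage mean at P3 and 60 at P0. Between P0 and P3, 77 were called higher at P3, 23 lower and 79 not called, beside 40.1% and 36.4% of all genes tested. Between E13.5 and E16.5, 131 were called higher at E16.5, 4 lower and 44 not called, beside 45.5% and 34.6%. Of the 162 fetal-higher genes, 96 were highest at E13.5 and 66 at E16.5, and between these stages 37 were called higher at E16.5, 75 lower and 50 not called. Between P0 and P3, 46 of them were called higher at P3, 57 lower and 59 not called. The stages within a set also differ in genotype tag, so stage and tag cannot be told apart in them.

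The separation depended in part on the scale given to the libraries. Mean deposited size factors from E13.5 to P3 were 0.939, 1.13, 1.94 and 1.01, and the P0 libraries had the lowest sums of normalized counts. Over all genes tested, the median log2 change was 0.08 as deposited, 0.15 with TMM factors, 0.23 with median-of-ratios factors and 0.56 with equal library totals. Of the 179 postnatal-higher genes, 171, 156 and 153 stayed separated under these 3 alternatives, and 152 under all of them. Of the 162 fetal-higher genes, 140, 105 and 50 stayed separated, and 50 under all. Those 50 include Dppa3, Gtsf1l, the 3 Ifitm genes, Isg15, Utf1, Pou5f1, Nanos2, Dnd1, Rhox5 and Stip1. Nanog, Gdf3, Zfp42, Dppa4, Tdrd5, Bst2, Cct7 and Hsph1 are not among them. With equal library totals the gap of Nanog was 1.72 and that of Dppa4 1.06.

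**Figure D5:**
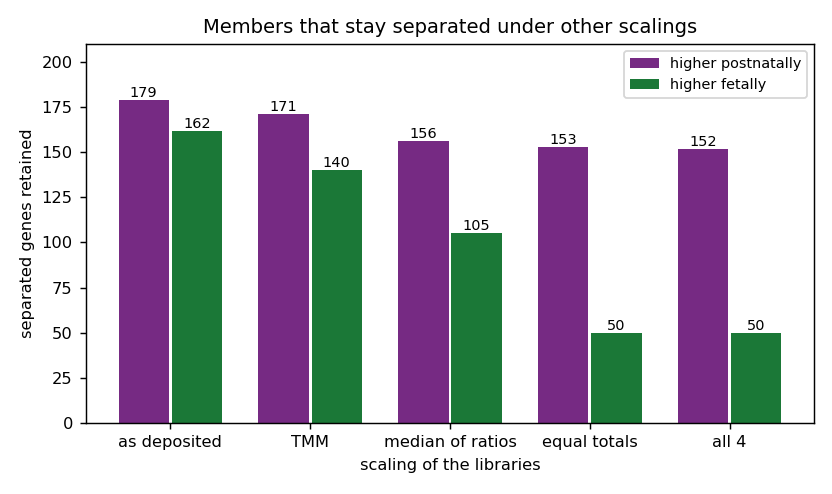
Number of separated genes (vertical) that stay separated under the deposited scaling, TMM factors, median-of-ratios factors, equal library totals and all 4 of these. Purple bars are postnatal-higher and green bars fetal-higher genes. The postnatal-higher count declines from 179 to 152 and the fetal-higher count from 162 to 50.

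The median gap was 2.58 among the postnatal-higher and 2.56 among the fetal-higher genes, and the median fold of set means was 6.97 and 5.08. A gap of at least 4 was found for 25 and 32 genes, and for 24 of the former when the fetal libraries of Hoxb6 were held at 3 reads. Just inside the 2-fold limit lay Arhgap30 and 1700112H15Rik upward, both with gaps of 2.01, and Tex14 and Vps26c downward, both at 2.00. Just outside lay Flt1 upward, whose lowest postnatal library of 1292 stood against a highest fetal one of 647, and Smarcb1 downward, with 22706 against 11427. A further fetal-higher gene, Gm44873, counted 2.18 in its lowest fetal library and 1.04 in its highest postnatal one, so its gap lies under the 3 reads taken as the floor.

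Protein-coding genes made up 161 of the postnatal-higher genes (89.9%) and 141 of the fetal-higher genes (87.0%), beside 91.6% of the 15037 genes. Chromosome 11 held 29 of the postnatal-higher genes (16.2%, beside 7.96% of the 15037), and chromosome 7 held 27 of the fetal-higher genes (16.7%, beside 7.64%). Within 100 kb of another gene separated in the same direction lay 19 of the postnatal-higher and 25 of the fetal-higher genes. Beside the clusters named above these include Zfp72, E430024I08Rik, Zfp825 and Gm46430 at chr13:74369326-74617945, and Eps8l1, Tnnt1 and Dnaaf3 at chr7:4460674-4532453. Counts of neighbouring genes can share reads where the genes overlap, and whether the authors' counting used strand is not given in the sources used here. Of the 341 genes, 21 had over 20% of their 50-base words in other genes.

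The median number of CpG pairs in the promoter window was 18.5 over 124 postnatal-higher genes and 13 over 125 fetal-higher genes. It was 21 over the 11219 genes of the same level with a promoter in the table. The E-box CACGTG was found in 13.6% of fetal-higher and 8.87% of postnatal-higher promoters, beside 8.09% of all promoters. The octamer ATGCAAAT, which OCT4-type factors bind, was found in 2.40% and 3.23%, beside 1.97%, and the cAMP response element TGACGTCA in 3.20% and 2.42%, beside 2.03%. All were searched on both strands.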

How the data were processed

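RNA was sequenced in 12 samples, 6 fetal and 6 postnatal, and all were used. Per the labels' protocols, libraries were made with a SMART-seq kit for little RNA and a TruSeq mRNA kit. Per the submitters' processing notes, bcl2fastq 2.20, cutadapt 1.18, HISAT2 2.1.0, featureCounts 1.5.2 and DESeq2 1.26.0 were used, with builds mm10 and GRCm38. The authors deposited 1 table of 55487 genes whose signal is the featureCounts count per gene divided by an RLE size factor per library. Every value was a whole multiple of 1 read (tolerance 0.001), which allowed the reads to be recovered. At 40946616 to 51533747 reads per library, values near 3 reads, the floor used, carry large counting errors, which no molecular identifiers reduce. Column heads carry numbers that are not the labels' replicate numbers, so columns were assigned to stages only.

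The separation rule was applied to the normalized counts. Genes that reached 10 normalized counts in 3 libraries or more, 22384 in number, were tested on log2(normalized count + 1) with limma 3.58.1 (R 4.3.3, trend, stage as 4 levels, 8 residual degrees of freedom), Benjamini-Hochberg adjusted over all of them, and in a fit of 2 sets of 6. Because the values are normalized, limma gave the reported calls, and edgeR 4.0.16 and DESeq2 1.42.0 on recovered reads were alternatives. All 3 were tested on simulated data. Other scalings, pseudocounts, filters, gap and level limits, a block on the column number, and leaving out each library were also tried. The other steps used scipy 1.17.1, pandas 2.3.3, numpy 2.4.6 and matplotlib 3.10.9 under Python 3.11.15.

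Symbols matched 55141 of 55487 identifiers (99.4%), with positions and exon lengths from GENCODE M21 on GRCm38. Promoters came from RefSeq on GRCm38.p6 and matched 124 of the 179 and 125 of the 162 genes. Genes were named by a rule: the 12 widest gaps (each value + 1) and the 6 highest levels per direction, up to 6 members a list, the 3 genes on each side of the gap limit, and Morc1. The rule, the members and the lists were chosen with earlier results of these data known. Other separated genes were named, by role, after their values were seen.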

Additional observations from a re-analysis of the deposited data

Results flagged for a closer look

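For 29 named genes the change from E13.5 to P0 and the change from E16.5 to P3 were both called by limma, in opposite directions, and the difference between the changes was also called. Such a difference was called for 84.2% of all genes tested, so it is common in these libraries. The values below are that difference on the log2 scale, the P3 minus E16.5 change less the P0 minus E13.5 change. Of these genes none was separated between the sets, and the 2 pairs of stages also differ in genotype tag.

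The transposon silencing genes in this group all had negative differences, with P0 above E13.5 and P3 below E16.5. The value was -15.38 for the piRNA-directed methylation factor Spocd1, -13.77 for the DNA methylation cofactor Dnmt3l and -7.715 for the helicase gene Tdrd9. It was -6.8 for Piwil4, -4.49 for Henmt1, -3.865 for Dnmt3a, -3.669 for Morc1 and -0.8762 for Fkbp6. Imprinted genes were alike in sign, at -8.349 for Mirg, -8.081 for Grb10 and -6.513 for Meg3. The antigen presentation genes Nlrc5 and Tap1 had -7.591 and -5.497, and the lactate dehydrogenase gene Ldha had -2.531.

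Positive differences mark genes with P0 below E13.5 and P3 above E16.5. Cell cycle genes were of this kind, with 6.276 for Ccnb1, 6.158 for Ccnb2, 5.847 for Top2a, 5.17 for Pcna and 4.329 for Aurka. LIN28 and let-7 target genes followed, with 7.183 for Mycn, 4.086 for Igf2bp1, 3.555 for Lin28a, 1.558 for Igdcc3 and 1.43 for Plagl2. The signal transducers Smad3 and Smad2 had 3.725 and 1.759. Egln1 had 3.52, Rhox2e 3.28 and Sgk1 2.756.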

How the results depend on the processing

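The count of genes called between the sets, 16765 as reported, was within 1.5 times that under TMM, median-of-ratios and total scaling, pseudocounts of 0.1 and 10, no filter (19152), edgeR (16415) and DESeq2 (16525). It was 11006 with a mean of at least 100, 8583 with an absolute log2 change of at least 1 and 4125 in the fit of 2 sets of 6. With a mean of at least 100, 11968 genes were called for P0 against E13.5 and 11825 for the difference of the changes. The share of calls that were higher was 52.7% as reported, 55.9% with TMM, 59.4% with median-of-ratios factors, 76.2% with equal totals, 39.0% with a mean of at least 100 and 70.4% with an absolute log2 change of at least 1. With equal totals, 1018 called genes had the opposite direction.

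Separated genes numbered 179 upward and 162 downward. They were 379 and 397 with a gap of 1.5, 25 and 32 with a gap of 4, 48 and 105 with a level of 1000, 201 and 144 with TMM, 219 and 116 with median-of-ratios factors, and 374 and 53 with equal totals. With a level of 10 they were 301 and 189. Within 1 tag they were 3735 and 5043 for P0 against E13.5, and 2441 and 2003 for P3 against E16.5. The causes were not tested, beyond the number of libraries and limits used.

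Leaving out each library gave 181 to 220 separated genes upward and 164 to 184 downward, with at most 2 reported genes lost. Leaving a library out can only relax the 2-fold rule, so a reported gene can be lost only through the level limit. That the reported genes were kept is therefore no test of them. It gave 16213 to 16596 calls between the sets, 18831 to 19331 for P0 against E13.5, 14752 to 15700 for P3 against E16.5 and 18470 to 18681 for the difference. Of the named genes, Dnmt3a, Sgk1 and Pcna changed sign and became called with equal totals, at log2 changes of 0.48, 0.44 and 0.40, from values not called as reported. Dnmt3a did so with median-of-ratios factors too, at 0.13. Smad2, Igdcc3, Fkbp6 and Rhox2d, not called as reported, were called higher already with TMM. Plagl2 and Piwil4 became called higher with median-of-ratios factors and equal totals, and Smad3, Hmga2 and Mirg with equal totals only. A replicate block on the column numbers, which are not the labels' replicate numbers, was added after seeing the data and called 16674 genes between the sets, 19268 for P0 against E13.5, 15480 for P3 against E16.5 and 18802 for the difference. Same-numbered libraries did not deviate together, with correlations of -0.036 to 0.042 over 18 pairs.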
